A study of Pan troglodytes with 8 samples.

Results

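The EBF transcription factors EBF1, EBF2, EBF3 and EBF4 and the Cajal-Retzius genes RELN, TP73 and CALB2 were followed across 4 cell populations sorted from chimpanzee cerebral organoids. These 7 genes were chosen by name, and each was found as 1 row among the 60583 named rows of a count table on the chimpanzee genome. All 7 were also among the 18137 rows of a second table, in which the same libraries were counted on the human genome. On the chimpanzee genome 6 of the 7 passed the filter on low counts, and TP73 did not.

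EBF proteins (early B cell factors) bind DNA as dimers. In the developing nervous system of frog and mouse they act after the proneural factors, when a progenitor commits to becoming a neuron. Cajal-Retzius cells are early-born neurons of the cortical surface that secrete reelin, the product of RELN, a glycoprotein that guides migrating neurons into layers. In the mouse these cells express EBF2 and EBF3, depend on p73 (TP73) for survival, and contain the calcium-binding protein calretinin (CALB2). RELN and CALB2 are also known from GABAergic interneurons, so neither gene alone identifies a Cajal-Retzius cell.

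The organoids came from the chimpanzee (Pan troglodytes) line SandraA of induced pluripotent stem cells, were embedded in Matrigel and kept on an orbital shaker, and were collected at week 8 within 3 days. The 4 populations were neurons positive for BCL11B (N), basal intermediate progenitors (bIP), basal radial glia (bRG) and apical radial glia (aRG). No group carried a mutation or a treatment, and all libraries derive from this 1 line. Each population had 2 libraries, and beyond BCL11B the sources used here do not name the sort markers.

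The chimpanzee table held 24649971 to 33245892 counts per library. BCL11B was highest in N at 488 and 590 CPM (counts scaled to a common library size), EOMES in bIP at 1357 and 1540 CPM, and SOX2 in aRG at 958 and 850 CPM. RBFOX3, a neuronal splicing factor, was at 154 and 121 CPM in N and 178 and 223 CPM in bIP. Of 8 identity genes 0 were called in bRG over aRG, where 1 of all 35382 tested genes (0.00283%) was called, so this count does not show that the 2 populations are alike. MALAT1, an abundant nuclear RNA, took a larger share of counts in the library numbered 1 of every population (7.33% to 8.57%) than in the library numbered 2 (3.61% to 6.47%). Differences were therefore also formed within each number. The labels do not state that libraries of 1 population are separate cultures. P-values therefore rest on a spread between libraries that could be technical.

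EBF1, EBF2 and EBF3 were at their highest in bIP, CALB2 was highest in N, EBF4 and RELN passed the test in no comparison of the fit to all 8 libraries, and TP73 was almost uncounted on the chimpanzee genome. Calls were made with edgeR's quasi-likelihood test at a Benjamini-Hochberg adjusted p under 0.05 over 35382 genes. In N over bIP 4 of the 6 tested genes were called, where 2.54% of all genes were called. EBF1, EBF2 and EBF3 were lower (1.48% of all genes) and CALB2 higher (1.06%). In N over aRG 2 were called, against 9.67% of all genes, with CALB2 higher (4.87%) and EBF3 lower (4.8%). EBF2 was the 1 gene called, and higher, in bIP over aRG (2.83% of all genes in either direction, 1.34% higher) and in bIP over bRG (1.03% and 0.458%). In N over bRG 0 of 6 were called (6.01% of all genes) and 3 had an unadjusted p under 0.05, as did 6438 of the 35382 genes. In bRG over aRG 0 of 6 were called (0.00283% of all genes) and 1 had an unadjusted p under 0.05, as did 1318 of the 35382 genes. DESeq2, a second count test, called 2 of the genes in N over aRG (16.5% of all genes with an adjusted p), 2 in N over bRG (12.3%) and 4 in N over bIP (8.29%). It called 3 in bIP over aRG (7.58%), 4 in bIP over bRG (5.76%) and 1 in bRG over aRG (0.435%). On the human genome edgeR called 2 in N over aRG (19.2% of 16353 genes), 1 in N over bRG (12.2%) and 4 in N over bIP (5.74%). There it called 2 in bIP over aRG (7.28%), 1 in bIP over bRG (2.96%) and 0 in bRG over aRG (0.00612%). Comparisons that share a population share its 2 libraries, so these results are not independent of each other. In sorted bulk RNA, fewer cells that express a gene and less RNA per cell cannot be told apart.

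EBF2, a factor of early neuronal differentiation, was at 38.3 and 128 CPM in the bIP libraries. It was at 0.889 and 2.37 CPM in N, 2.63 and 6.02 in bRG, and 3.74 and 5.22 in aRG. Both bIP libraries lay above all 6 others, and bIP replicate 2 was the higher of the pair. The mean in bIP was 18.5-fold that in aRG (log2 fold change 4.21, SE 0.66, adjusted p = 0.00451) and 19.2-fold that in bRG (4.26, SE 0.66, adjusted p = 0.0118). The call over bRG was lost without bIP replicate 2 (log2 fold change 3.14, adjusted p = 0.0698). In N the mean was 50.8-fold lower than in bIP (log2 fold change −5.67, with SE 0.72 and adjusted p = 0.00161). Within replicate numbers 1 and 2 the difference of N from bIP was −5.28 and −5.69. Both N libraries were also below both aRG and both bRG libraries, and these differences did not pass (adjusted p = 0.194 and 0.255). Both passed with no low-count filter (0.00528 and 0.0127), and each did not pass in 14 of the 16 alternative settings. Between bRG and aRG the interval of the log2 difference ran from −1.35 to 1.24 (95%).

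EBF1, named for its role in B cell development and also active in differentiating neurons, was at 50.1 and 36.1 CPM in bIP. It was at 7.42 and 0.734 CPM in N, 9.63 and 6.40 in bRG, and 6.37 and 5.16 in aRG. Both bIP libraries were again above all others, and the 2 N libraries differed by the largest ratio of the 4 pairs. EBF1 fell in N relative to bIP, with a log2 change of −3.40 (SE 0.77) at an adjusted p of 0.0371. That call was lost without bIP replicate 1 (adjusted p = 0.0735), without bIP replicate 2 (0.0504) and with these 2 populations fitted alone (0.0991). In bIP the mean was 7.48-fold that in aRG, which did not pass (log2 fold change 2.90, SE 0.75, adjusted p = 0.0636). The same difference passed by DESeq2 (adjusted p = 0.000355), on the human genome (0.0334), with no low-count filter (7.93e-08), with halved counts (0.0496), with these 2 populations fitted alone (0.00511) and without N replicate 1 (0.000920) or 2 (0.000679) or bRG replicate 1 (0.0138) or 2 (0.0137). The SE was smaller without either N library (0.41 and 0.41) than with both. Of the 16 alternative settings, 6 did not call bIP over aRG and 10 did not call bIP over bRG. Over bRG the difference was 2.43 (SE 0.73, adjusted p = 0.206 with edgeR and 0.00552 with DESeq2), and it also passed with no low-count filter (1.86e-05), with these 2 populations alone (0.0281) and without N replicate 1 (0.00630) or 2 (0.00495). Without N replicate 1 EBF1 was also called lower in N than in aRG (−2.97, adjusted p = 0.00532) and in bRG (−3.45, adjusted p = 0.00372). Within number 1 N over aRG was 0.22, and within number 2 it was −2.66.

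EBF3, the member of the family that is mutated in a human neurodevelopmental syndrome, was at 17.6 and 23.9 CPM in bIP. It was at 1.55 and 2.03 CPM in N, 6.06 and 3.84 in bRG, and 7.59 and 5.10 in aRG. The bIP libraries were above all others and the N libraries below all others, with no overlap at either end. EBF3 fell in N relative to bIP (log2 fold change −3.53, SE 0.52, adjusted p = 0.00397) and relative to aRG (−1.83, SE 0.49, adjusted p = 0.0355). The call against aRG was lost without N replicate 1 (adjusted p = 0.152), N replicate 2 (0.0883), bIP replicate 2 (0.0599) or aRG replicate 1 (0.168), and with these 2 populations fitted alone (0.128). In bIP the mean was 3.26-fold that in aRG (log2 fold change 1.71, SE 0.48) and 4.18-fold that in bRG (2.06, SE 0.48). Neither difference passed by edgeR (adjusted p = 0.0914 and 0.0765), and both passed by DESeq2 (0.00677 and 0.000590). Of the 16 alternative settings, 14 did not call the difference over aRG and 11 did not call that over bRG. Over bRG it also passed with no low-count filter (0.0145), without N replicate 1 (0.0475) and without N replicate 2 (0.0447).

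EBF4, the least studied of the 4 paralogs, had another profile. It was at 42.3 and 20.1 CPM in N, 30.6 and 23.2 in bIP, 41.3 and 38.3 in bRG, and 44.4 and 39.6 in aRG. Both bIP libraries were below both radial glia pairs, and the N libraries straddled bIP and radial glia. No comparison passed. The largest difference was bIP over aRG at −0.64 (SE 0.36, adjusted p = 0.501), with a 95% interval from −1.42 to 0.14. For N over bIP the interval was −0.57 to 0.99, and for bRG over aRG −0.86 to 0.70. EBF4 was called in 0 of the 16 alternative settings in every comparison.

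**Figure D1:**
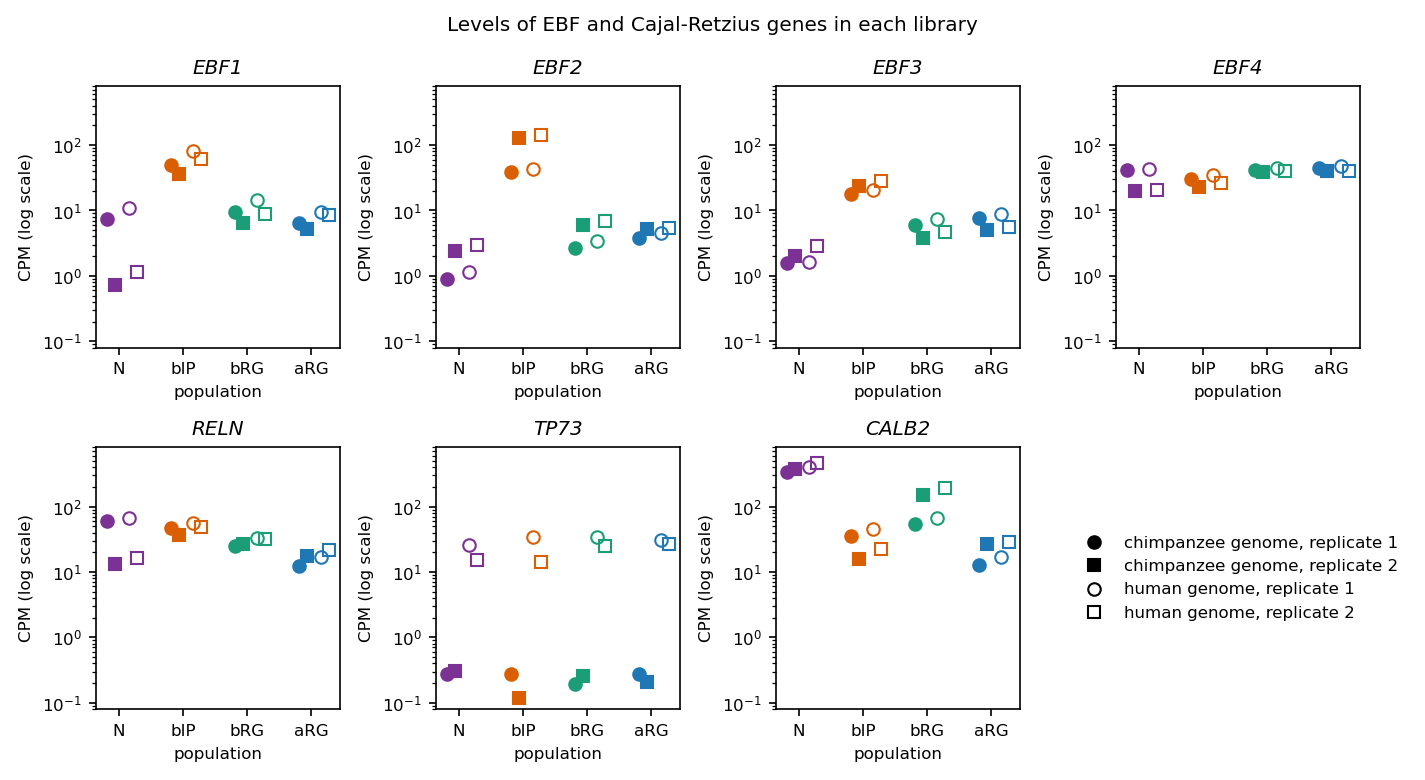
CPM on a log scale of each of the 7 genes in N, bIP, bRG and aRG, with filled symbols for the chimpanzee genome, open symbols for the human genome, circles for replicate 1 and squares for replicate 2. EBF1, EBF2 and EBF3 stood highest in both bIP libraries, CALB2 in both N libraries, and TP73 lay below 0.31 CPM on the chimpanzee genome and above 14 CPM on the human genome.

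RELN was at 60.6 and 13.3 CPM in N, 47.3 and 37.3 in bIP, 25.3 and 26.4 in bRG, and 12.2 and 17.4 in aRG. The 2 N libraries held the highest value and the second lowest of the 8, while bIP lay above bRG and bRG above aRG with no overlap. In order of their means the populations were bIP at 42.3 ± 7.05 CPM, N at 36.9 ± 33.4, bRG at 25.8 ± 0.831 and aRG at 14.8 ± 3.65 (mean ± SD, n = 2 each), and no 2 neighbours in that order passed the test. The mean in bIP was 2.86-fold that in aRG (log2 fold change 1.51, SE 0.54, adjusted p = 0.206). It passed with no low-count filter (adjusted p = 0.00243), with these 2 populations fitted alone (0.0486) and without N replicate 1 (0.0222) or 2 (0.0153). In 12 of the 16 alternative settings bIP over aRG did not pass, and in 14 of them N over aRG did not. The difference of N from aRG was 1.32 (SE 0.53, adjusted p = 0.166) and depended on the N library. Within number 1 it was 2.30 and within number 2 −0.38. Without N replicate 2 it was called higher (2.03, adjusted p = 0.00321), as with no low-count filter (0.00957), and without N replicate 1 it was −0.16.

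The N library with more RELN was also the one with more EBF1 and EBF4. The same library had more NHLH2, a helix-loop-helix factor of postmitotic neurons (82.9 CPM in N replicate 1, 26.3 in N replicate 2), more NHLH1, its paralog (75.4 and 10.7), and more LHX1, a LIM homeobox factor of Cajal-Retzius cells (3.33 and 0.475). CALB2 and TBR1 went with neither library, at 334 and 376 CPM and at 467 and 440 CPM in N replicates 1 and 2. N replicate 2 had more EBF2 (0.889 CPM in N replicate 1, 2.37 in N replicate 2) and EBF3 (1.55 and 2.03). Among other genes known from Cajal-Retzius cells, SPOCK1 (56.4 and 128), ACKR3 (0.928 and 7.47) and PCP4 (4.25 and 5.27) were higher in N replicate 2. So were CALB1, CACNA2D2 and LHX5, while CNR1, NDNF, CXCR4 and BARHL2 were higher in N replicate 1. These genes were chosen after their values were seen, and whether cells of another kind account for the difference between the N libraries was not tested.

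CALB2, which encodes calretinin, was at 334 and 376 CPM in N. It was at 34.9 and 15.7 CPM in bIP, 53.2 and 152 in bRG, and 12.7 and 26.4 in aRG. Both N libraries were above all others by a wide margin, and bRG was above both bIP and aRG without overlap. The mean in N was 18.2-fold that in aRG (log2 fold change 4.18, SE 0.56, adjusted p = 0.000440) and 14.1-fold that in bIP (3.81, SE 0.55, adjusted p = 0.00346). Both calls held in all 16 alternative settings. Over bRG the difference was 1.79 (SE 0.50, adjusted p = 0.0590), and it passed by DESeq2 (0.00461), on the human genome (0.0414), with no low-count filter (8.33e-07), and without bRG replicate 2 (0.00237), bIP replicate 1 (0.0237) or 2 (0.0245), or aRG replicate 1 (0.0236) or 2 (0.0216). Relative to bRG the level in bIP was −2.02 (SE 0.51, adjusted p = 0.104 with edgeR and 0.00230 with DESeq2), and it passed with no low-count filter (5.33e-08) and without bRG replicate 1 (0.00559), aRG replicate 1 (0.0342) or aRG replicate 2 (0.0307). Of the 16 alternative settings, 7 did not call CALB2 in N over bRG and 11 did not call it in bIP over bRG. Between bIP and aRG the direction turned with the replicate number, at 1.45 within number 1 and −0.75 within number 2.

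In bRG the mean CALB2 level was 5.25-fold that in aRG (log2 fold change 2.39, SE 0.52, unadjusted p = 0.000563, adjusted p = 0.539 by edgeR). DESeq2 called it (adjusted p = 0.00236), and so did edgeR with no low-count filter (6.74e-10) and without bRG replicate 1 (0.00754). It was not called in 13 of the 16 alternative settings. Some general neuronal transcripts were also higher in both bRG libraries than in both aRG libraries, though not past the threshold. DCX, a microtubule protein of migrating neurons, was at 334 and 561 CPM in bRG and 143 and 290 CPM in aRG, and NEUROD6, a factor of glutamatergic cortical neurons, at 188 and 462 CPM in bRG and 65.6 and 169 CPM in aRG. The library with more CALB2 within bRG, and within aRG, was also the one with more DCX and NEUROD6. Within N, and within bIP, the library with more CALB2 was the one with less DCX and NEUROD6. The summed level of the 14 genes of the proneural cascade and its neuronal targets was 934 to 1675 CPM in bRG and 648 to 1061 CPM in aRG, 0 of them were called, and none was at 0 in either. The part of neuronal RNA in the difference of CALB2 was not tested. The other EF-hand calcium buffers of neurons were scarce. CALB1 was at 2.05 to 12.0 CPM over the 8 libraries, PVALB at 0.0295 to 0.259 and SCGN at 0 to 0.629, and of the 2 that passed the filter 0 were called in any comparison.

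TP73 had 3 to 8 counts in each library on the chimpanzee genome, or 0.118 to 0.302 CPM. The values were 0.271 and 0.302 CPM in N, 0.272 and 0.118 in bIP, 0.195 and 0.252 in bRG, and 0.275 and 0.206 in aRG. It did not pass the low-count filter, so no difference between populations was tested there. On the human genome the same libraries had 167 to 498 TP73 counts. Levels there were 26.2 and 15.2 CPM in N, 34.4 and 14.2 in bIP, 34.1 and 25.2 in bRG, and 30.7 and 27.0 in aRG, and all populations overlapped except that N lay below aRG. No comparison passed on the human genome either. For N over aRG the log2 fold change was −0.48 (SE 0.44, adjusted p = 0.509), and for bIP over aRG −0.25 (SE 0.44, adjusted p = 0.834).

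The human genome gave 53.7 times as many TP73 counts in all as the chimpanzee genome, 2793 against 52. For the other 6 genes it gave fewer, with chimpanzee totals 1.32 to 1.97 times the human ones. In CPM, the human value of TP73 was 50.4 to 175 times the chimpanzee value over the 8 libraries. Among 10552 symbols of both tables whose human mean reached 10 CPM, 305 (2.89%) had a ratio as large, after 1 CPM was added to both means. EBF1 was the next most shifted of the 7, at 1.39 to 1.71 times the chimpanzee CPM, and EBF4 the least, at 1.00 to 1.14. In the chimpanzee RefSeq annotation of another assembly no gene overlaps TP73, and its nearest neighbours are WRAP73 and TP73-AS1. TP73-AS1 had 0 counts in all 8 libraries of the chimpanzee table, and WRAP73 was at 64.4 to 143 CPM. In the same annotation 1 uncharacterised gene overlaps each of EBF1, EBF2, EBF3 and CALB2, and 0 overlap EBF4 or RELN. Without strand, reads of such overlapping genes cannot be told apart. The sources used here do not name the annotation behind either table, and why the tables differ for TP73 was not tested.

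**Figure D2:**
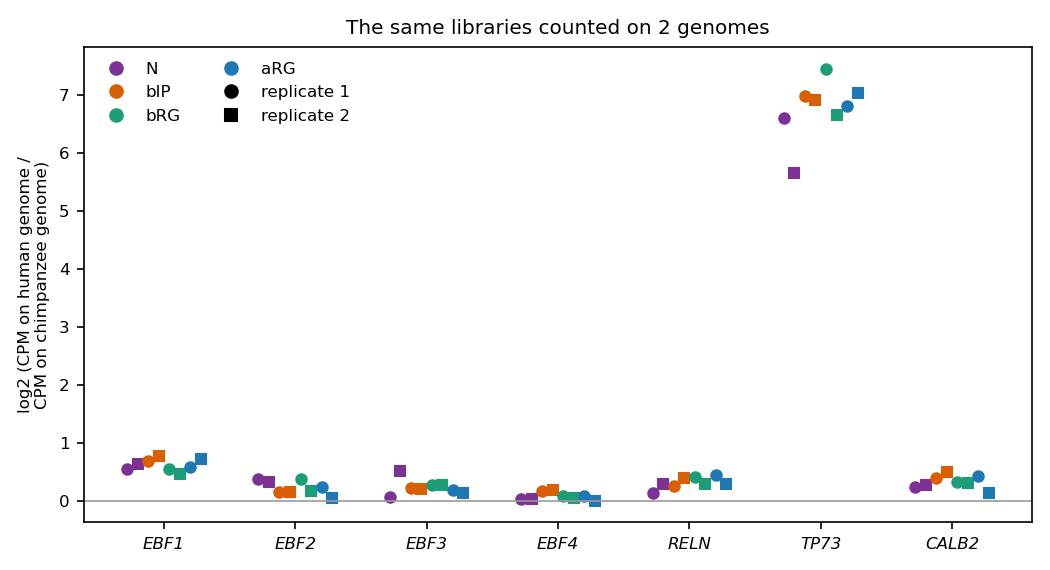
Log2 ratio of CPM on the human genome over CPM on the chimpanzee genome for each gene, 1 point per library, coloured by population, with circles for replicate 1 and squares for replicate 2. TP73 lay between 5.66 and 7.45 in all 8 libraries, while the other 6 genes lay between 0.01 and 0.78.

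**Figure D3:**
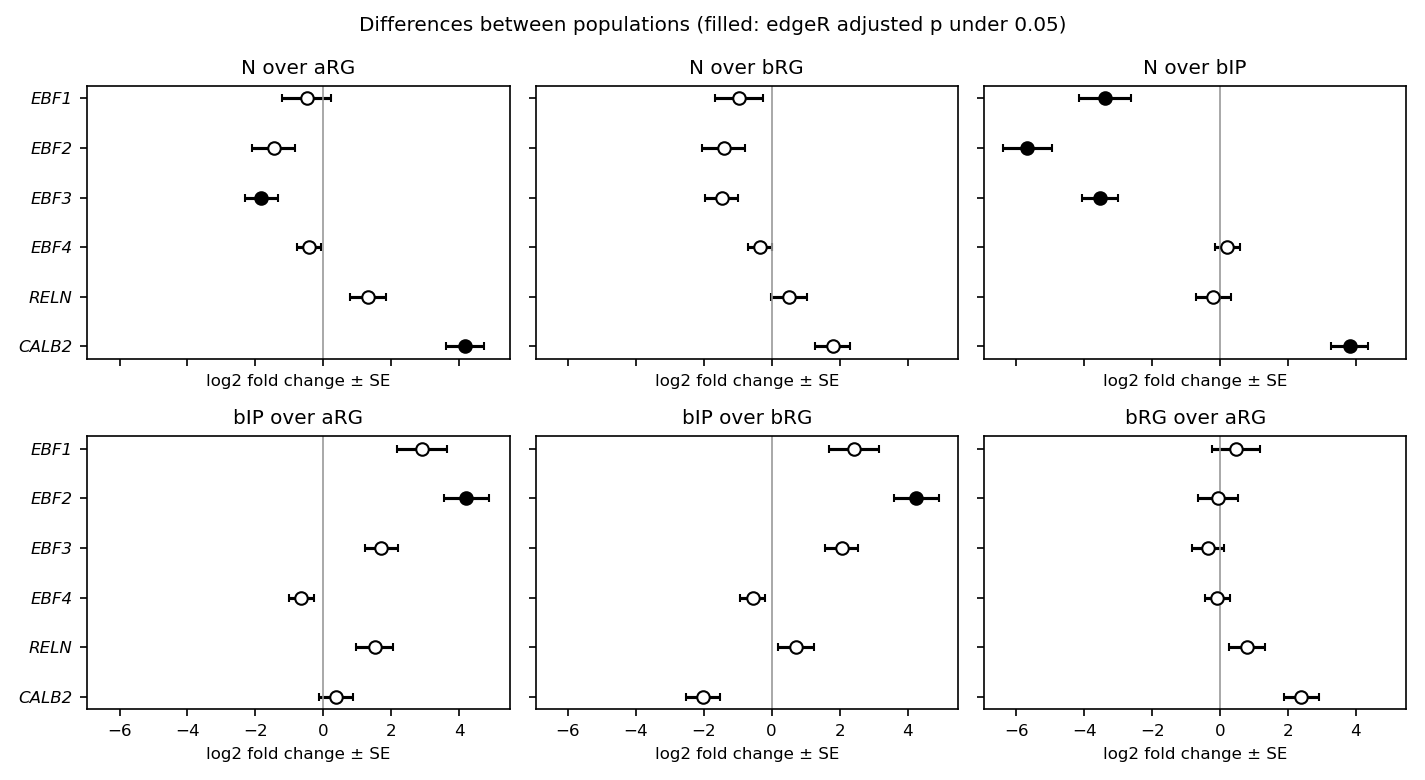
Log2 fold change with its SE from the edgeR fit for the 6 tested genes in the 6 comparisons, with filled circles for an adjusted p under 0.05. N over bIP held filled circles on both sides of 0, from EBF2 at −5.67 to CALB2 at 3.81, and bRG over aRG held none.

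Over the 8 libraries the levels of EBF1, EBF2 and EBF3 were correlated, and each was highest in bIP. Pearson's r of log2(CPM + 1) was 0.91 for EBF2 with EBF3, 0.84 for EBF1 with EBF3 and 0.79 for EBF1 with EBF2. On the human genome these were 0.92, 0.82 and 0.79. Spearman's rho was lower, at 0.79, 0.60 and 0.50 for the same pairs. Within every population EBF1 was higher in the library numbered 1 and EBF2 in the library numbered 2. EBF4 stood apart, with r of 0.01 with EBF1, −0.49 with EBF2 and −0.23 with EBF3. RELN had r of 0.67 with EBF1, 0.31 with EBF2 and 0.19 with EBF3. CALB2 had r of −0.81 with EBF3 and 0.17 with RELN. These correlations describe 8 libraries in 4 pairs that share a population, and no test was made on them.

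For each gene the 5 genes of most similar profile were sought among 11132 genes whose mean reached 10 CPM in 1 population or more. For EBF2 they were ROBO2, an axon guidance receptor (r = 0.98), CHRNA3, a nicotinic receptor subunit (0.97), TSIX (0.97), RNF122 (0.96) and NYNRIN (0.95). ROBO2 averaged 69.6 CPM in N, 288 in bIP, 97.0 in bRG and 111 in aRG, and CHRNA3 12.1, 120, 18.3 and 20.3 CPM in the same order. Reads were not stranded, so TSIX cannot be separated from a transcript on the other strand. For EBF1 they were INKA2 (0.98), FOXP2, a forkhead factor of deep-layer neurons (0.98), MPIG6B, TTC39B and TAC3, a tachykinin (0.97 each). FOXP2 averaged 18.9 CPM in N, 163 in bIP, 26.8 in bRG and 26.8 in aRG. For EBF3 they were STAT4 (0.97), AK9, VWA5A, RND3 and SNCAIP (0.94 to 0.95).

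For CALB2 the most similar genes were VSTM2L (0.98), TPRN, SLC6A17, a transporter of synaptic vesicles, GABBR2, a GABA-B receptor subunit (0.98 each), and HPCAL4, a neuronal calcium sensor (0.97). GABBR2 averaged 308 CPM in N, 13.2 in bIP, 64.9 in bRG and 16.3 in aRG. For RELN they were DNAJC15 (0.96), DUSP19, NIBAN2, SLC25A51 and SHARPIN (0.91 to 0.95). DNAJC15, the closest, averaged 13.7 CPM in N, 16.5 in bIP, 10.8 in bRG and 7.60 in aRG. For EBF4 they were RANBP1 (0.98), ZNF823, POLE3, NABP2 and EFEMP2 (0.96 each). With Spearman's correlation 0 of the 5 recurred for EBF1, EBF4 and CALB2, 1 for EBF3 and 2 for EBF2 and RELN. On the human genome 3 of the 5 recurred for EBF1, 4 for EBF2, 1 for EBF3, 2 for EBF4, 1 for RELN and 2 for CALB2.

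Of 13 other genes known from Cajal-Retzius cells all passed the filter. In N over aRG 4 rose and 4 fell, with a list median of −0.36 against −0.08 over all genes, and in bIP over aRG 3 rose and 1 fell (median −0.04 against 0.05). The 4 that fell in N over aRG became 2 without aRG replicate 2. The 1 that fell in bIP over aRG became 0 without bIP replicate 1 or 2, 3 without N replicate 1 or 2, and 2 without bRG replicate 1 or 2. In N over bIP 1 rose (median −0.04 against −0.10), and 0 without bIP replicate 1 or 2. TBR1, a T-box factor that deep-layer neurons also express, rose by 4.09 in N over aRG (adjusted p = 0.000157) and by 3.37 in bIP over aRG (adjusted p = 0.00195). NHLH2 rose by 4.06 in N over aRG (adjusted p = 0.000408) and by 2.78 in bIP over aRG (adjusted p = 0.0111), with 54.6 ± 40.0 CPM in N, 22.6 ± 3.89 in bIP, 12.3 ± 0.363 in bRG and 3.26 ± 1.06 in aRG. CNR1, the cannabinoid receptor of early neurons, rose by 3.27 in both (adjusted p = 0.000513 for N and 0.00212 for bIP). CXCR4, the chemokine receptor that keeps Cajal-Retzius cells at the surface, fell in N, at 1.31 and 0.129 CPM against 51.3 and 29.6 CPM in aRG (log2 fold change −5.78, adjusted p = 0.000737).

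Some further Cajal-Retzius genes were low in N and others were not, and they are named here after their values were seen. SPOCK1 was at 56.4 and 128 CPM in N and rose over aRG (log2 fold change 2.26, adjusted p = 0.00824) and over bIP (2.30, adjusted p = 0.0225). ACKR3 was at 0.928 and 7.47 CPM in N and 32.2 and 59.1 in aRG (−3.45, adjusted p = 0.0107). PCP4 fell in N over aRG (−1.90, adjusted p = 0.0242) and in bIP over aRG (−2.69, adjusted p = 0.0111). LHX1 was at 3.33 and 0.475 CPM in N, 8.23 and 9.91 in bIP, 10.0 and 2.74 in bRG and 3.85 and 1.06 in aRG. LHX5, another LIM homeobox factor, stayed between 0.354 and 1.98 CPM in every library. NDNF, a secreted marker, was at 0.889 and 0.129 CPM in N and 5.15 and 17.3 in aRG, and it fell in N over aRG (log2 fold change −4.44, adjusted p = 0.0105). BARHL2 and CACNA2D2 reached 2.83 and 0.561 CPM at most. The summed level of the 13 genes was 936 to 1065 CPM in N, 738 to 738 in bIP, 212 to 337 in bRG and 183 to 253 in aRG, and CNR1 and TBR1 made up most of it in N and bIP. None of the 13 was at 0 in all libraries.

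Genes of the reelin pathway, through which a receiving neuron reads the signal, mostly did not pass the test. Of 14 genes 2 rose in N over aRG (median 0.50 against −0.08 over all genes) and 2 rose in bIP over aRG (median 0.10 against 0.05). In bIP over aRG the 2 became 0 without bIP replicate 2 or aRG replicate 1, and 1 without bIP replicate 1 or aRG replicate 2. DAB1, the intracellular adaptor, was at 159 and 232 CPM in N, 19.8 and 14.5 in bIP, 39.5 and 66.2 in bRG, and 35.0 and 42.0 in aRG. It rose in N over aRG by 2.34 (SE 0.34, adjusted p = 0.000734) and over bIP by 3.51 (SE 0.35, adjusted p = 0.000398), and it fell in bIP over bRG (−1.62, adjusted p = 0.0407). The call in bIP over bRG was lost without bIP replicate 1 or 2 or bRG replicate 2. LRP8, a reelin receptor, was at 196 and 275 CPM in N and 218 and 375 in bIP, against 61.3 and 118 in bRG and 60.7 and 81.0 in aRG. It rose in N over aRG (1.73, adjusted p = 0.00955) and in bIP over aRG (2.07, adjusted p = 0.0103). FYN, the kinase that phosphorylates DAB1, rose in bIP over aRG by 1.10 (adjusted p = 0.0248).

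Of 14 genes of the proneural cascade around the EBF genes 8 rose and 0 fell in bIP over aRG (median 2.47 against 0.05 over all genes). The 8 became 3 without aRG replicate 1. In N over aRG 5 rose and 3 fell (median 1.12 against −0.08). In bIP over bRG 4 rose (median 1.67 against −0.00), with 2 without bIP replicate 1, 7 without N replicate 2, 8 without bRG replicate 2, 9 by DESeq2 and 11 with no filter. In N over bIP 0 rose and 5 fell (median −0.83 against −0.10). There 3 rose without bRG replicate 1 or 2 and with no filter, 2 by DESeq2 and with these 2 populations alone, and 1 without aRG replicate 1 or 2. NEUROG1, a proneural factor, was at 78.7 and 40.4 CPM in bIP, 5.64 and 10.6 in bRG and 17.8 and 21.9 in aRG. It had 0 counts in both N libraries, and it was called lower in N than in bIP (adjusted p = 0.000152) and in aRG (2.06e-05). NHLH1, NEUROD4 and INSM1, named after their values were seen, had their highest level in bIP as well. NHLH1 was at 538 and 721 CPM in bIP and 51.4 and 64.7 CPM in aRG (log2 fold change 3.44, adjusted p = 0.0129), and it fell in N over bIP (−3.87, adjusted p = 0.00892). NEUROD4 fell in N over bIP (−6.29, adjusted p = 0.00576), as did INSM1, a zinc finger factor of basal progenitors (−2.84, adjusted p = 0.0197). NEUROD6 (4.16), DCX (3.07) and STMN2 (3.23) rose in N over aRG (adjusted p = 0.000215, 0.000253 and 0.000282). They rose in bIP over aRG too, by 2.85, 2.60 and 1.92 (adjusted p = 0.00627, 0.00265 and 0.0173).

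Of the pair of zinc finger proteins known to bind EBF1 in the mouse, ZNF521 fell in N, with 3.83 and 2.11 CPM in N, 19.9 and 18.6 in bIP, 29.1 and 14.2 in bRG, and 34.5 and 32.1 in aRG. The log2 fold change was −2.69 over bIP (adjusted p = 0.00785) and −3.48 over aRG (adjusted p = 0.000427). ZNF423 was at 36.9 and 9.06 CPM in N, 60.2 and 93.1 in bIP, 31.3 and 31.4 in bRG, and 47.9 and 75.2 in aRG. It was called in 0 comparisons of the main fit. In N over aRG, and in N over bIP, both genes of the pair were called lower in 2 of 8 alternatives other than leaving out a library.

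**Figure D4:**
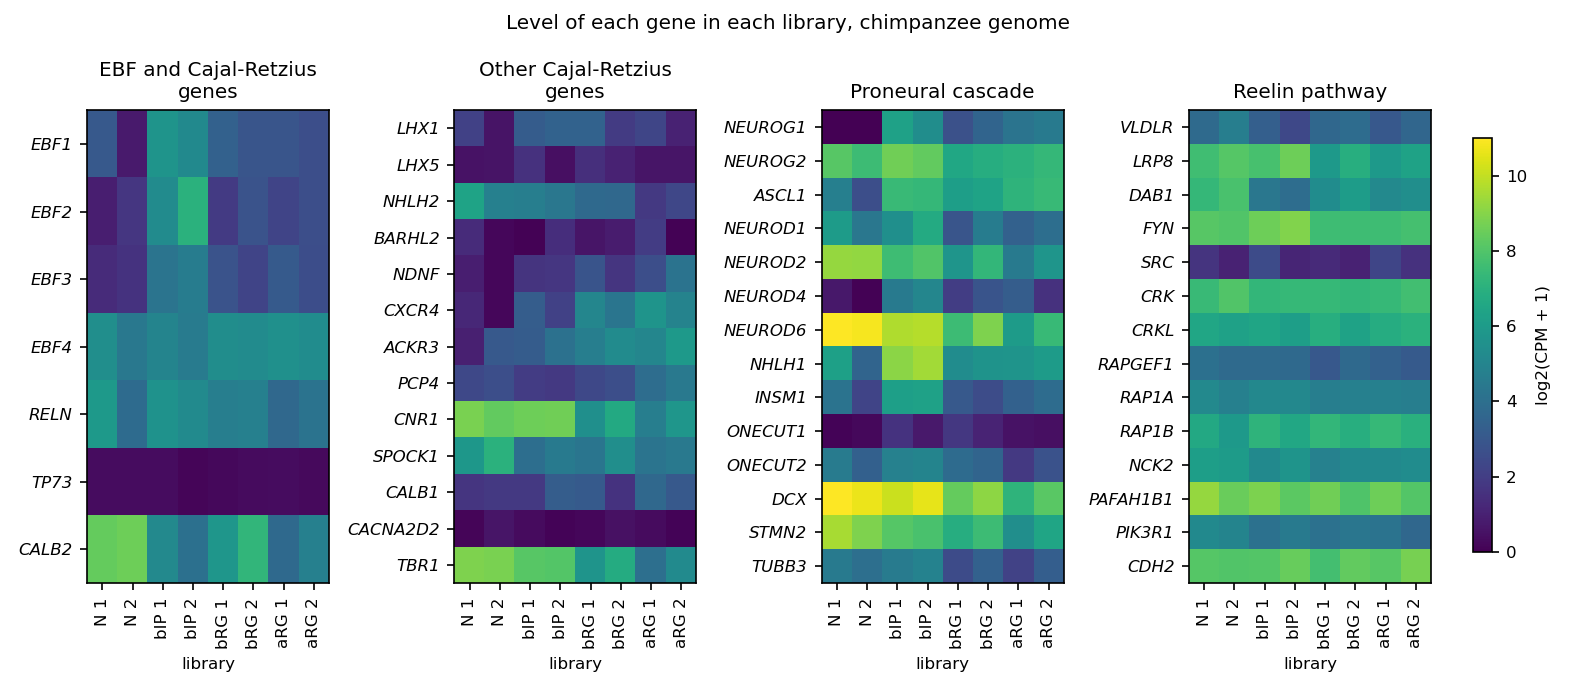
Log2(CPM + 1) on the chimpanzee genome of the 7 genes, of 13 other Cajal-Retzius genes, of 14 genes of the proneural cascade and of 14 genes of the reelin pathway, with 1 column per library in the order N, bIP, bRG and aRG. EBF1, EBF2, EBF3, NEUROG1, NEUROD4, NHLH1 and INSM1 were brightest in the bIP columns, and DAB1 in the N columns.

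Markers of other cells that express RELN, CALB2 or EBF genes were examined beside these results. Of 12 GABAergic neuron genes 11 passed the filter. In N over aRG and in bIP over aRG 0 rose. The list's median was −1.34 in N over aRG and 0.38 in bIP over aRG. The synthetic enzymes GAD1 and GAD2 were at 1.20 to 3.54 CPM in N, and no gene of the list was at 0 in all libraries. The part of GABAergic neurons in the levels of RELN and CALB2 was not tested.

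Mesenchymal and perivascular genes, some of which accompany EBF1 and EBF2 in connective tissue, had their highest summed level in aRG. Of 10 genes 4 fell in bIP over aRG (median −2.43), and the count was 1 without bIP replicate 1 or aRG replicate 2. In N over aRG 7 fell (median −4.62), and the count was 7 when each library was left out. Their summed level was 25.7 to 47.1 CPM in N, 140 to 159 in bIP, 297 to 359 in bRG and 406 to 2043 in aRG, with COL1A1 at 155 and 941 CPM in the 2 aRG libraries. In bIP, where EBF1, EBF2 and EBF3 were highest, PDGFRB was the largest part of the sum, at 116 and 67.2 CPM. It made up most of the sum in replicate 1 only. COL1A1 was at 19.9 ± 20.8 CPM (mean ± SD, n = 2), with 34.6 CPM in replicate 2 and less in replicate 1. COL1A2 (7.11 and 19.3 CPM) and COL3A1 (2.33 and 16.1 CPM) were also higher in replicate 2. So were LUM (1.17 and 3.11 CPM), DCN (1.75 and 5.86), TWIST1 (0.544 and 2.60) and RGS5 (2.02 and 6.06). PDGFRB, PDGFRA and ACTA2 were lower there. Replicate 2 was the bIP library with more EBF2 and EBF3, and replicate 1 the one with more EBF1. The hem of the cortex is a source of Cajal-Retzius cells. Of 14 tested genes of the cortical hem and choroid plexus 4 fell in bIP over aRG (median −3.04) and 7 in N over aRG (median −3.52). The 4 became 7 without N replicate 1 or 2 or bRG replicate 1 or 2, and 2 without aRG replicate 2. WNT3A was at 0 in all libraries. Their sum was 80.9 to 110 CPM in N, 116 to 119 in bIP, 137 to 151 in bRG and 960 to 3386 in aRG, where most of it was TTR. Of 11 tested genes of diencephalon and hindbrain 2 fell in N over aRG (median −2.01) and 0 were called in bIP over aRG (median −0.82). The 2 became 1 without N replicate 2 or aRG replicate 1. Their sum was 29.8 to 46.0 CPM in N, 92.0 to 120 in bIP, 79.7 to 127 in bRG and 92.8 to 130 in aRG. LHX9, a LIM homeobox factor of that list, was at 47.8 and 75.1 CPM in bIP and between 0.345 and 14.5 CPM elsewhere. GAD1, GAD2, PDGFRB, ACTA2 and LHX9 were named, and the bIP libraries compared for mesenchymal genes, after their values were seen. The part of such cells in the levels of EBF1, EBF2 and EBF3 was not tested.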

How the data were processed

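Cells sorted from organoids were profiled by bulk RNA-seq in 8 libraries of 10000 cells. Per the labels' protocols, cDNA was made by a Smart-seq2 type method with 12 to 17 PCR cycles and no strand marking. No molecular identifiers are named, so PCR copies are counted. The authors deposited whole-number read counts per gene symbol on panTro6 and on hg38. STAR was used per the submitters' processing notes, while its version, the annotation, the counter and its strand setting were not given in the sources used here. Chimpanzee counts over shared symbols were 1.70 to 1.74 times the human ones, so both mates of a pair may be counted.

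The row without a gene name (0.00545% to 0.00771% of counts) was left out. Genes were filtered with filterByExpr (35382 on panTro6, 16353 on hg38), scaled by TMM and fitted together with edgeR 4.0.16 in R 4.3.3 by glmQLFit and glmQLFTest, with a term per population and 4 residual degrees of freedom. Tests were two-sided. SE and intervals come from the F statistic. Levels are TMM-scaled CPM computed from the counts. The model was tested on simulated counts with a smaller spread between libraries than the common estimate in these data. Only well counted genes were changed in them. That test therefore does not show how the model performs at the spread of these libraries or for genes of low count. Similarity of profiles is Pearson's r of log2(CPM + 1) over the 8 libraries, and within-number ratios use CPM + 0.1. The 7 genes, the 12 gene lists and the tests were chosen with earlier results of these data known. Named genes are the 7, up to 4 called genes per list with the smallest adjusted p in bIP or N over aRG, and the 5 most similar genes of each. Alternatives were DESeq2 1.42.0, its size factors, other filters, the human genome table, 2 populations alone, halved counts, a replicate term and leaving out each library. Results for some listed genes are not reported here.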

Additional observations from a re-analysis of the deposited data

How the results depend on the processing

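The counts here are of the 7 genes called, of which 6 were tested with the low-count filter. In N over bIP the count was 4, and 3 to 4 when each library was left out. In N over aRG the count was 2. It was 4 with no low-count filter, 1 with the 2 populations alone, and 1 to 2 when each library was left out, where 2 could be different genes (EBF1 and CALB2 without N replicate 1, RELN and CALB2 without N replicate 2). In N over bRG it was 0, but 2 by DESeq2, 2 with no filter, 1 on the human genome and 0 to 1 when each library was left out. In bIP over aRG it was 1, but 3 by DESeq2, 3 with no filter, 3 with the 2 populations alone, 2 on the human genome, 2 with halved counts and 1 to 3 when each library was left out. In bIP over bRG it was 1, but 4 by DESeq2, 4 with no filter, 2 with the 2 populations alone and 0 to 3 when each library was left out. In bRG over aRG it was 0, but 1 by DESeq2, 1 with no filter and 0 to 1 when each library was left out.

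With a replicate block the counts were 3 in N over aRG, 2 in N over bRG, 4 in N over bIP, 3 in bIP over aRG, 3 in bIP over bRG and 0 in bRG over aRG. Genes called with this block and not without it were EBF2 in N over aRG (adjusted p = 0.00913) and N over bRG (0.0229), CALB2 in N over bRG (0.0166), EBF1 in bIP over aRG (0.00964) and bIP over bRG (0.0358), and EBF3 in bIP over aRG (0.0459) and bIP over bRG (0.0300). The labels do not say that a replicate number marks a batch. Deviations of libraries with the same number correlated weakly and positively over genes, by 0.0394 to 0.0866. The main fit did not treat the numbers as pairs, and whether they mark a batch was not tested.

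Without 1 library the sign of some uncalled differences turned. Log2 fold changes for CALB2 in bIP over aRG ran from −0.33 to 0.99, for EBF1 in N over aRG from −2.97 to 0.37, for EBF2 in bRG over aRG from −0.80 to 0.40, and for RELN from −0.16 to 2.03 in N over aRG, −1.67 to 0.52 in N over bIP and −0.96 to 1.23 in N over bRG. For EBF4 they ran from −1.07 to 0.011 in N over aRG, −0.42 to 0.66 in N over bIP and −0.99 to 0.087 in N over bRG. EBF2 in bRG over aRG was 0.047 on the human genome. Of 96 counts of all genes called, 64 stayed within 1.5 times the main count and 32 did not. DESeq2 called 5303, 3835, 2577, 2282, 1167 and 114 genes and edgeR with no filter 4526, 3280, 2264, 2159, 1187 and 215, against 3421, 2128, 900, 1002, 365 and 1, for N over aRG, N over bRG, N over bIP, bIP over aRG, bIP over bRG and bRG over aRG. With the replicate block these were 4960, 3594, 2165, 2122, 1121 and 39. The cause was not tested. Of 2304 counts of list genes called, 2008 stayed within 1.5 times and 296 did not. TP73 had 52 counts over all libraries of the chimpanzee table and was not tested there.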

Other observations

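TP73 is also known in the mouse for a role in multiciliated cells. Of 9 tested genes of such cells 0 rose and 4 fell in N over aRG (median −1.87), and 2 fell in bIP over aRG (median −1.75). The 4 became 2 without aRG replicate 2, and the 2 became 1 without bIP replicate 2. TUBB4B, a tubulin of cilia, was at 122 ± 55.2 CPM in N and 522 ± 49.6 CPM in aRG (adjusted p = 0.00114). FOXJ1, the master regulator of motile cilia, fell to 0.483 ± 0.355 CPM in N, against 5.64 ± 1.74 CPM in aRG (adjusted p = 0.0265). CCDC78 was at 0 in all libraries.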
